A study of Rattus norvegicus with 8 samples.

Results

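The Krüppel-like factors (KLF) are zinc-finger transcription factors, and 10 of their genes are described here in newborn rat retinal cells that had received a Klf4 plasmid: Klf4, Klf2, Klf3, Klf5, Klf6, Klf9, Klf10, Klf11, Klf13 and Klf16. Their probes were the gene probes whose accession, without its version, is a RefSeq transcript of one of these rat symbols. This gave 15 of the 45598 gene probes on the array, and all 10 genes had a probe that passed the filter on dim signals. A control plasmid (4 arrays) or a plasmid encoding Klf4 (4 arrays) was brought into retinas of Lister hooded rats by electroporation in vitro on postnatal day 0, at 25 V with pulses of 50 ms. They were cultured for 39 hours, after which GFP-positive, that is transfected, cells were sorted and their total RNA was labelled with Cy3. The arrays are numbered 2 to 5 in each group. The sources used here do not say which promoter drove the plasmids, which retinal cell types took them up, or whether the numbered samples came from separate animals, so the error behind each p-value is that between these 4 samples of a group and may be technical.

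KLF factors share a block of zinc fingers at the carboxy-terminal end that binds CACCC and GC-rich elements, so that members of the family can compete for the same sites. They differ in the amino-terminal part. Klf2, Klf4, Klf5 and Klf6 mostly activate transcription through acetyltransferases, Klf3 recruits the corepressor CtBP, and Klf9, Klf10, Klf11, Klf13 and Klf16 recruit the corepressor Sin3. Several of these genes are also known to be regulated by other family members. Klf4 is known for holding epithelial cells out of the cell cycle, for its part in the reprogramming of somatic cells, and, in retinal ganglion cells, for limiting axon growth.

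Upstream sequence is shown for the 3 members whose RefSeq window held a CACCC element, because they include the gene that rose most, Klf3, as well as genes that did not pass the test. Of the 10 members 6 were in the RefSeq promoter table (assembly GRCr8), and the 250 bases before the annotated start were searched on both strands. Klf10 and Klf16, which also rose, were not in it and could not be searched, nor could Klf2 and Klf13. The windows are given 5′ to 3′ on the gene's strand, with CACCC, or GGGTG where it lies on the opposite strand, in capitals. That of Klf3 lies at chr14:43850827-43851076 (minus strand), that of Klf5 at chr15:82471831-82472080 (plus strand) and that of Klf9 at chr1:230126396-230126645 (plus strand).
Klf3: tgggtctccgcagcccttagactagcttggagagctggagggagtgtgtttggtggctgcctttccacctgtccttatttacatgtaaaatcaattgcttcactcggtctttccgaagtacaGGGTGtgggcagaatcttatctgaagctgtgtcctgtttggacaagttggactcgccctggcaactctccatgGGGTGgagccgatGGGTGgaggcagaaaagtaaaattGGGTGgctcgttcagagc
Klf5: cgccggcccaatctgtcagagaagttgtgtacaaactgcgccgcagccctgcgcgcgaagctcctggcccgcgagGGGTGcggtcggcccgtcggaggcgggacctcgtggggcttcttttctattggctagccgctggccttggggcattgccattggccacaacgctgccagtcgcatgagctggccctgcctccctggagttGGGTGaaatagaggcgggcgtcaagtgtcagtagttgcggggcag
Klf9: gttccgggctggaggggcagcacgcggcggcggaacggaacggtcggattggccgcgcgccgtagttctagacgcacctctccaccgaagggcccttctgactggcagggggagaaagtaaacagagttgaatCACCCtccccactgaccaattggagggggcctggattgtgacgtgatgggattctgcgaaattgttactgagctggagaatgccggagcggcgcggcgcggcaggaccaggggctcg
The Klf3 window held 4 CACCC elements, all on the opposite strand, which begin at -128, -55, -42 and -18 counted from the start. The Klf5 window held 2 and the Klf9 window 1, while those of Klf4, Klf6 and Klf11 held 0. Of 33469 rat windows of the same length 49.2% held at least 1 CACCC, and 2.18% held 4 or more. The GC box GGGCGG, present in 30.5% of windows, was found 7 times upstream of Klf11, as in 0.347% of windows, and 1 time upstream of Klf6. The wider pattern CCNCNCCC, which overlaps CACCC where its last bases match and was present in 42.8% of windows, was found 5 times for Klf11 (5.29% of windows hold as many), 4 times for Klf6 (8.75%), and 1 time each for Klf3 and Klf5. A match is a run of letters and was not tested for binding.

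Klf3, Klf10 and Klf16 rose with the Klf4 plasmid, by about 5.03-fold, 3.67-fold and 2.61-fold, and no member fell past the threshold. The other 7 members did not pass, among them Klf4 itself as read by its probe on the array. In limma fitted over all 29988 genes and unnamed features, 3.02% were called at a Benjamini-Hochberg adjusted p under 0.05, 2.39% higher and 0.63% lower, against 3 higher and 0 lower of the 10 members (Klf9 lower at an unadjusted p under 0.05). Values are normalised log2 signals, that is log2 of the processed signal minus the 75th percentile of the array, and differences are Klf4 plasmid minus control on the log2 scale. The median difference of all features was -0.16, with 25.3% of features above 0, and changes are also given relative to this median. The median of the 10 members was 0.21. Klf2 passed the filter on dim signals only through the Klf4 plasmid group, so this median is a description. The count of called members is also a description, because the members were chosen with earlier results of these data known. The 4 other KLF genes tested gave 0 calls. In sorted bulk RNA, fewer cells of a type and less RNA per cell cannot be told apart.

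**Figure D1:**
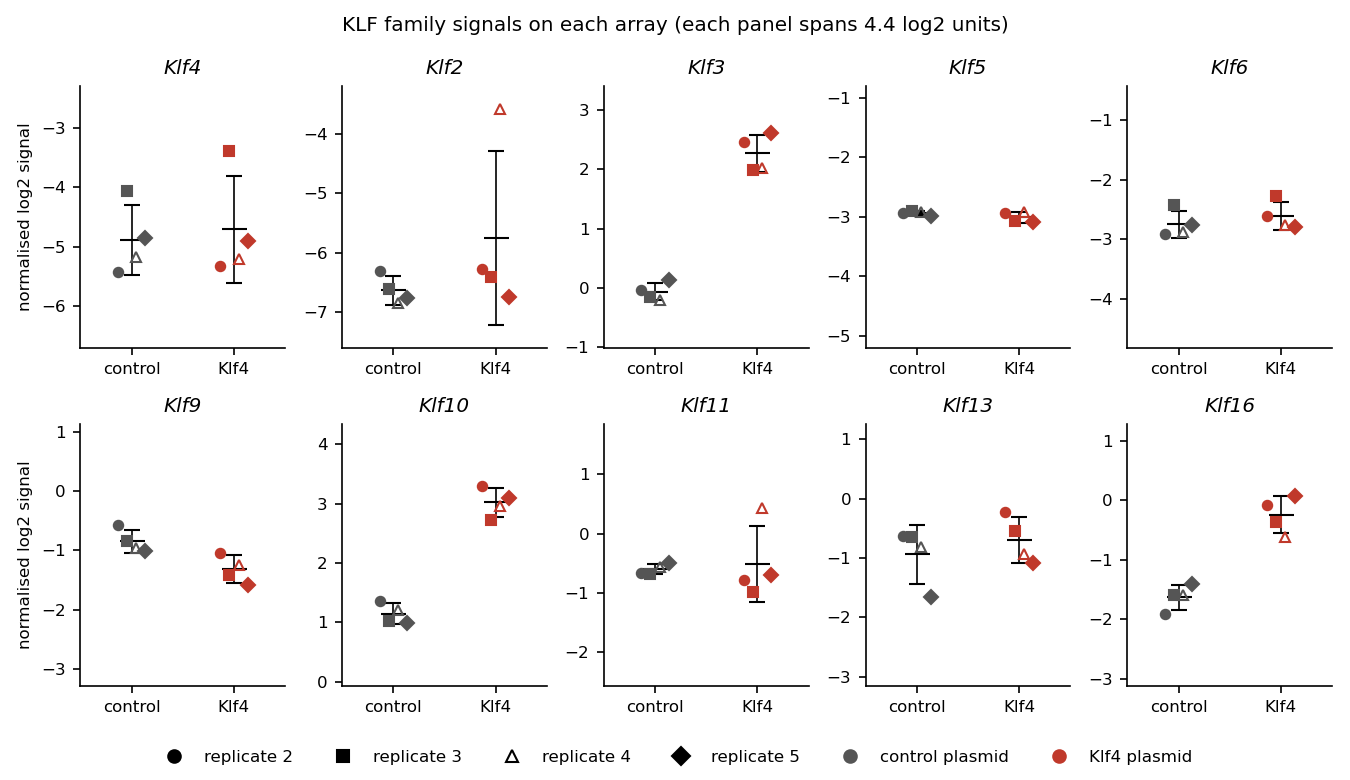
Normalised log2 signal of the probe that stands for each KLF gene, on each of the 4 control and 4 Klf4 plasmid arrays (symbols give the replicate number, open for replicate 4; bars are the mean and SD, and each panel has its own range of 4.4 log2 units). The 4 Klf4 plasmid arrays lie above all controls for Klf3, Klf10 and Klf16 and below all controls for Klf9. Klf4 replicate 4 stands apart in its group for Klf2 and Klf11, and control replicate 5 for Klf13.

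Before these results, both arrays numbered 4 were flagged for evaluation by the quality metrics of the software that read the spots. Klf4 replicate 4 had the lowest share of gene spots well above background (72.1%, against up to 86.5% on Klf4 replicate 2). Both arrays numbered 5 were scanned in a second scan. The 75th percentile of gene signals ran from 2354 (control replicate 5) to 5297 (control replicate 3). All controls lay in columns 1 and 3 of the slide and all Klf4 plasmid arrays in columns 2 and 4, so slide column and group cannot be told apart.

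The probe for Klf4 gave no check of the labels. Its normalised log2 signals were -5.42, -4.07, -5.18 and -4.86 on control replicates 2 to 5 and -5.33, -3.39, -5.21 and -4.90 on Klf4 replicates 2 to 5. The groups overlapped over most of their range, and replicate 3 was the highest array in both. The difference was 0.18 (SE 0.47, 95% interval -0.90 to 1.25, limma adjusted p = 0.887), and it turned to -0.26 without Klf4 replicate 3. With replicate number as a block the same difference had an SE of 0.17 and did not pass either (limma adjusted p = 0.575). Before scaling, the log2 signals were 6.67, 8.30, 6.69 and 6.34 in the controls and 6.91, 8.70, 7.15 and 6.43 with the Klf4 plasmid. The probe was well above background on all 8 arrays. It is spotted 2 times per array, and the pair of spots differed by 0.0263 to 0.197 log2 units on 7 arrays but by 1.16 on Klf4 replicate 5, where they read 57.8 and 129. The sources used here do not give the position of the probe relative to the coding insert of the plasmid. The values therefore describe only what this probe reads.

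Genes chosen for likeness to the Klf4 probe, which was highest on replicate 3, are favoured by that choice to be high there too. The 3 named genes whose signals followed the Klf4 probe most closely over the 8 arrays, of 13214 compared, were Ets1 (Pearson r = 0.951), Fosb (r = 0.907) and the member Klf6 (r = 0.891). Ets1 was dim, between -6.96 and -6.04 over the arrays, and was well above background on 4 control and 3 Klf4 plasmid arrays. Fosb encodes a component of the AP-1 transcription factor and is an immediate early gene. Among the controls it read -2.92 on replicate 3 and between -6.01 and -5.16 on the remaining arrays. With the Klf4 plasmid it read -0.73 on replicate 3 and between -6.15 and -4.78 on the remaining arrays. Without the 2 arrays farthest from the median of Klf4, which are both replicates 3, r was 0.628 for Ets1, -0.23 for Fosb and 0.0927 for Klf6. The likeness of Fosb and Klf6 to Klf4 thus rests on the arrays numbered 3.

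**Figure D2:**
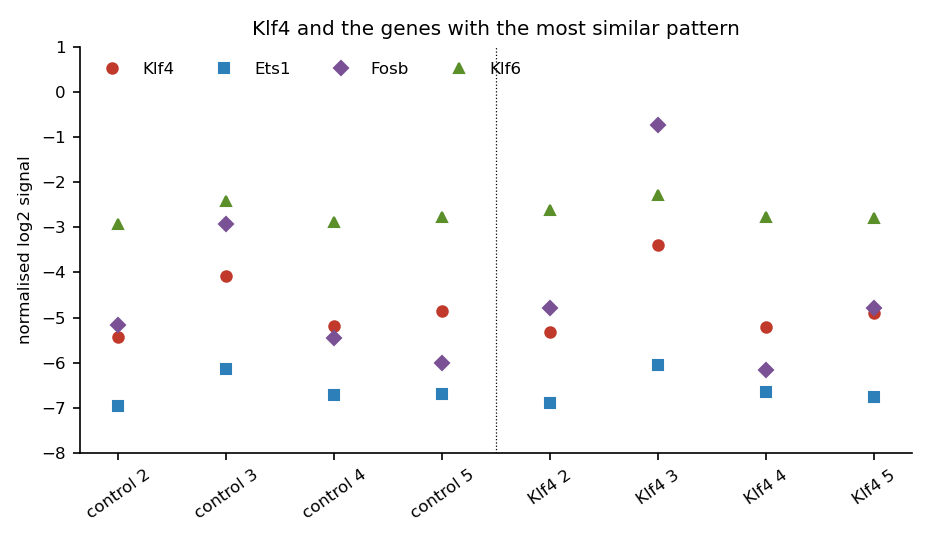
Normalised log2 signal of Klf4 and of the 3 genes with the most similar pattern, Ets1, Fosb and Klf6, on each array (controls left of the dotted line, Klf4 plasmid arrays right). On both arrays numbered 3 the 4 genes are at their highest within the group, and Fosb reaches -0.73 on Klf4 replicate 3.

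Of the other members that mostly activate transcription, none changed past the threshold. Klf2, known for the response of endothelium to flow and for T cell quiescence, was dim. Its signals were -6.31, -6.62, -6.85 and -6.77 in the controls and -6.27, -6.42, -3.58 and -6.75 with the Klf4 plasmid, and it was well above background on 2 control and 4 Klf4 plasmid arrays. Klf4 replicate 4 alone stood above the rest. The difference of 0.88 (SE 0.64, 95% interval -0.59 to 2.35, limma adjusted p = 0.575) became 0.16 without that array (adjusted p = 0.762).

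Klf5, a factor of dividing epithelial cells, was read by 3 probes. On A_44_P1164206, which stands for the gene, control signals ran from -2.98 to -2.90 and those of the Klf4 plasmid arrays from -3.09 to -2.92. The groups overlapped and both were narrow, with a difference of -0.07 (SE 0.11, 95% interval -0.31 to 0.17, limma adjusted p = 0.787) that turned to 0.0674 with quantile normalization. The other 2 probes gave 0.37 (95% interval -0.18 to 0.91) and -0.28 (95% interval -0.90 to 0.33), and neither passed. On the last of these Klf4 replicate 4 was the lowest array, at -7.02, against -6.08 to -5.81 on the other Klf4 plasmid arrays.

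Klf6, an early response factor that is known to promote axon growth in retinal neurons, had 2 probes of opposite sign. A_64_P036676, which stands for the gene, read -2.92, -2.43, -2.88 and -2.77 in the controls and -2.61, -2.27, -2.77 and -2.79 with the Klf4 plasmid. The groups overlapped, with a difference of 0.14 (SE 0.17, 95% interval -0.25 to 0.53, limma adjusted p = 0.745). On A_44_P490484 the difference was -0.20 (95% interval -1.12 to 0.73), and Klf4 replicate 4 read -4.10 against -2.70 to -2.03 on the other arrays of its group.

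Klf3, the member that recruits CtBP and acts mainly as a repressor of genes that other family members activate, rose most. Its probe A_42_P573441 read -0.03, -0.15, -0.20 and 0.13 in the controls and 2.46, 1.99, 2.01 and 2.61 with the Klf4 plasmid. Every Klf4 plasmid array lay above every control, and the gap between the groups exceeded the range within either. The difference was 2.33 (SE 0.18, 95% interval 1.93 to 2.74, limma adjusted p = 0.000429), or 2.49 above the median of all features. Across all features, 4.49% had Klf4 plasmid arrays that all lay above the controls.

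The second Klf3 probe gave nearly the same change from another level. A_44_P271339 read -1.96, -1.89, -1.999 and -1.99 in the controls, a spread of 0.05 (SD, n = 4), and 0.58, 0.04, -0.15 and 0.59 with the Klf4 plasmid. With every kept probe tested on its own its difference was 2.22 (SE 0.19, 95% interval 1.79 to 2.66, limma adjusted p = 0.000801). On both probes replicates 2 and 5 were the higher Klf4 plasmid arrays and replicates 3 and 4 the lower. Within the first scan the difference on the first probe was 2.28, and between the arrays of the second scan it was 2.48.

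**Figure D3:**
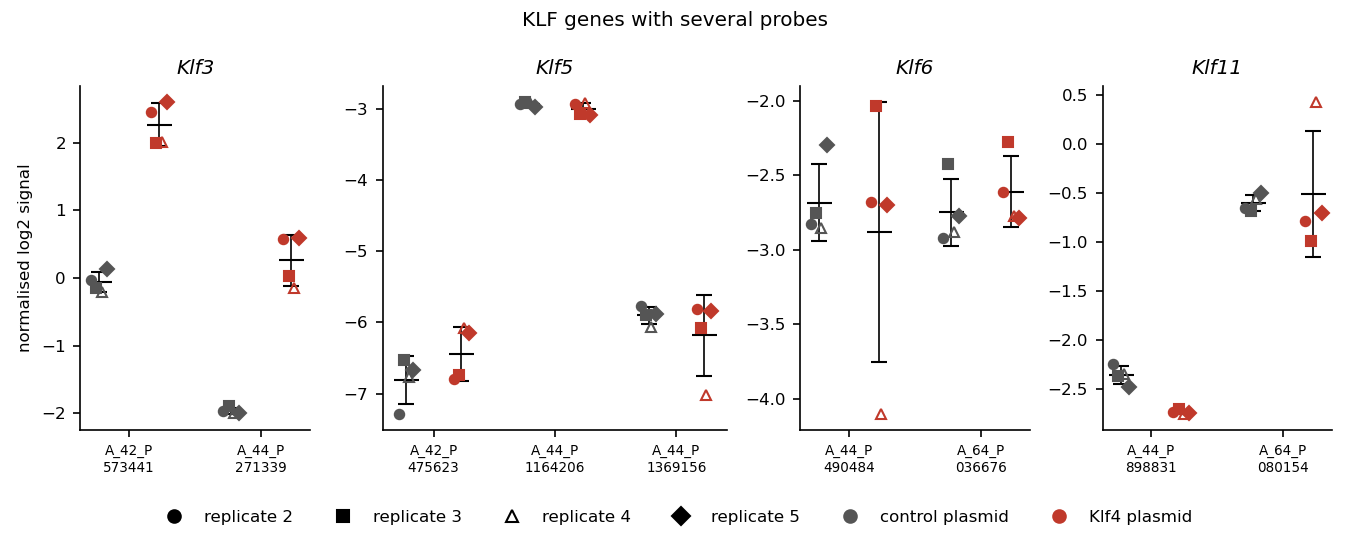
Normalised log2 signal on each array for the 4 KLF genes with several probes (control arrays grey, Klf4 plasmid arrays red, symbols for replicate numbers, bars for mean and SD). Both Klf3 probes separate the groups, with differences of 2.33 and 2.22, whereas the probes of Klf5, Klf6 and Klf11 differ in sign within a gene.

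Of the 5 members that recruit Sin3, 2 rose. Klf10, first described as an early gene induced by transforming growth factor beta, read 1.36, 1.02, 1.22 and 0.98 in the controls and 3.30, 2.73, 2.97 and 3.09 with the Klf4 plasmid. The groups did not overlap, and the lowest Klf4 plasmid array lay well above the highest control. The difference was 1.88 (SE 0.16, 95% interval 1.51 to 2.24, limma adjusted p = 0.000771), or 2.04 above the median of all features. The probe is also spotted 2 times per array, and its pairs agreed to within 0.0633 log2 units on all 8 arrays, so spot error was small beside the change. Taken by scan, the difference was 1.80 for the arrays read first and 2.11 for the pair read second.

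Klf16, a repressor that binds GC-rich promoters, rose by 1.38 (SE 0.19, 95% interval 0.95 to 1.81, limma adjusted p = 0.00622), which is 1.54 above the median of all features. Its signals were -1.91, -1.59, -1.59 and -1.41 in the controls and -0.07, -0.37, -0.62 and 0.08 with the Klf4 plasmid. The groups did not overlap, and Klf4 replicate 4 lay nearest the controls. Taken by scan, it was 1.35 for the arrays read first and 1.495 for the pair read second. Without Klf4 replicate 4 it was 1.51.

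Klf9, which responds to thyroid and glucocorticoid hormones in neurons, lay lower with the Klf4 plasmid on every array but did not pass. Its signals were -0.57, -0.85, -0.95 and -1.01 in the controls and -1.04, -1.42, -1.24 and -1.58 with the Klf4 plasmid. The highest Klf4 plasmid array lay just below the lowest control, a separation that 8.16% of all features showed in this direction. The difference was -0.47 (SE 0.16, 95% interval -0.85 to -0.10, unadjusted p = 0.0187, limma adjusted p = 0.215), or -0.31 relative to the median of all features.

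Klf11, a close relative of Klf10, had 2 probes that disagreed. A_64_P080154, matched to NM_001037354, read -0.66, -0.68, -0.56 and -0.50 in the controls and -0.78, -0.99, 0.43 and -0.70 with the Klf4 plasmid. Klf4 replicate 4 lay above all controls, and the other 3 Klf4 plasmid arrays lay below them. The difference of 0.09 (SE 0.29, 95% interval -0.58 to 0.76, limma adjusted p = 0.907) became -0.22 (adjusted p = 0.372) without that array. A_44_P898831, matched to the predicted transcript XM_006239984, read -2.24, -2.37, -2.34 and -2.48 in the controls and -2.74, -2.71, -2.76 and -2.74 with the Klf4 plasmid. Its groups did not overlap, and with every probe tested its difference was -0.38 (SE 0.11, 95% interval -0.63 to -0.13, limma adjusted p = 0.127), which did not pass.

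Klf13, a factor of lymphocyte and heart development, read -0.63, -0.65, -0.81 and -1.67 in the controls and -0.23, -0.55, -0.94 and -1.08 with the Klf4 plasmid. In both groups the array numbered 5, from the second scan, was the lowest. The difference was 0.24 (SE 0.28, 95% interval -0.41 to 0.89, limma adjusted p = 0.734), with 0.12 among arrays read first and 0.59 between those read second. Without control replicate 5 it was -0.00283.

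**Figure D4:**
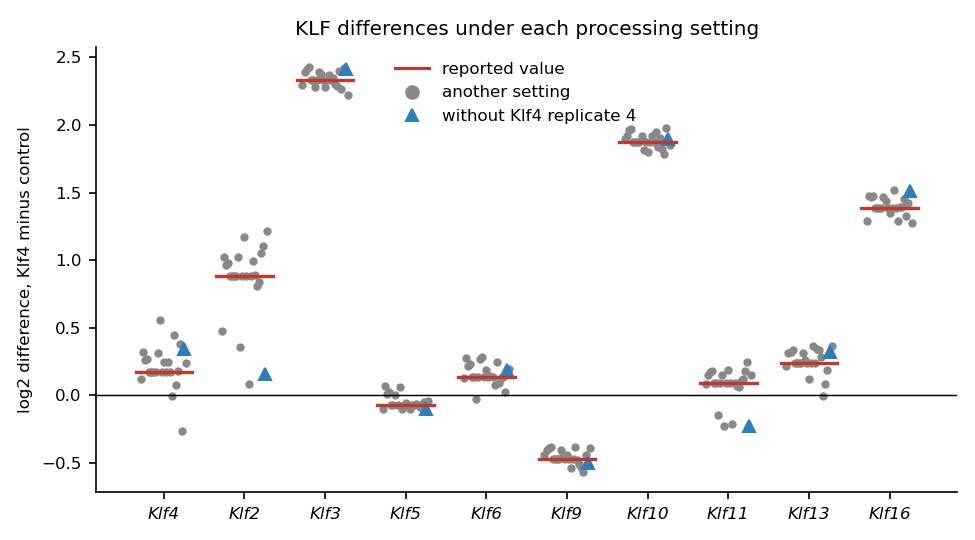
Log2 difference, Klf4 plasmid minus control, of each KLF gene as reported (red line) and under 23 other processing settings (grey points; the blue triangle leaves out Klf4 replicate 4). Klf3, Klf10 and Klf16 keep values between 1.27 and 2.43, Klf9 stays between -0.57 and -0.38, and Klf2 and Klf11 are lower without Klf4 replicate 4.

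The rises of Klf3, Klf10 and Klf16 held under each of 23 other settings, which included other scalings, the authors' deposited values, blocks for scan, slide row and replicate number, and leaving out each array. The difference ran from 2.22 to 2.43 for Klf3, from 1.78 to 1.97 for Klf10 and from 1.27 to 1.52 for Klf16, with a highest limma adjusted p of 0.00607, 0.0141 and 0.0317. In each case the highest p came from the arrays of the first scan, 3 per group.

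Genes whose signals followed these 3 members over the 8 arrays are given by name only for their likeness in pattern. The closest were Hebp2, Tmbim1 and Apod to Klf3 (r = 0.995 to 0.996), Inpp5f, Avp and Fcgbpl1 to Klf10 (r = 0.994 to 0.998), and Aprt, Oasl and Col4a4 to Klf16 (r = 0.997 to 0.999). Of these, 7 were well above background on all arrays, with differences from 0.64 for Aprt to 3.34 for Fcgbpl1. Oasl and Col4a4 were well above background on 0 control arrays and were 14.9-fold and 3.35-fold higher at their bounds (defined below). These correlations describe 8 arrays that share the group difference.

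The rest of the KLF and Sp genes, which carry similar zinc fingers, gave no call in the reported fit. Of 8 other KLF genes listed 4 had a probe and all were tested, with 0 higher and 0 lower (1 at an unadjusted p under 0.05 in limma) and a median of -0.05. Klf14, the highest in signal of the list, was at -0.02 (95% interval -0.55 to 0.51), where 1 array had no usable spot. Klf15, a factor of fasting metabolism and of the glucocorticoid response, was named after its values were seen. Its control signals ran from -2.19 to -1.90 and those with the Klf4 plasmid from -3.58 to -2.43, without overlap, with a difference of -0.84 (SE 0.24, 95% interval -1.39 to -0.28, limma adjusted p = 0.137). With array weights it passed, at -1.08 (adjusted p = 0.00763), and in the fits without 1 array it ran from -1.01 to -0.62. Of 9 Sp genes 7 were tested, with 0 calls (1 at an unadjusted p under 0.05) and a median of 0.01. Sp4, a neuronal Sp factor that was likewise named after its values were seen, read -2.75 to -2.30 in the controls and -3.66 to -2.85 with the Klf4 plasmid, a difference of -0.70 (SE 0.20, limma adjusted p = 0.132). The ubiquitous factor Sp1 was at 0.12 (95% interval -0.27 to 0.51).

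Corepressors and coactivators of KLF factors were not called either. Of 10 listed 7 were tested, with 0 calls and 0 at an unadjusted p under 0.05 in limma, and a median of -0.16, equal to that of all features. Ctbp1, the partner of Klf3, read 3.66 to 3.82 in the controls and 3.63 to 3.88 with the Klf4 plasmid, a difference of 0.04 (95% interval -0.22 to 0.30). Sin3b, of the Sin3 complex, was at -0.0031 (95% interval -0.28 to 0.27), and Sin3a was not among the named probes.

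Among 10 genes known as targets of Klf4 or of other KLF factors, 3 were higher and 0 lower, with a median of 0.74, or 0.61 with Thbd at its bound. Thbd, Tagln and Nos3 passed the filter on dim signals only through the Klf4 plasmid group, where they were high, so the count and the median are a description. Krt19, a keratin of simple epithelia, read -0.10, 0.16, -0.03 and -0.68 in the controls and 2.84, 2.61, 1.93 and 2.36 with the Klf4 plasmid. The groups were far apart, with a difference of 2.60 (SE 0.25, limma adjusted p = 0.00115), and it was called in all 23 other settings. Cdkn1a, which encodes the cell cycle inhibitor p21, rose by 1.41 (SE 0.27, limma adjusted p = 0.0313), from -0.67 to 0.16 in the controls to 0.57 to 1.53 with the Klf4 plasmid. Its call was lost without any single array except Klf4 replicate 4 (adjusted p 0.0640 to 0.110) and in the first scan alone (0.177). It was also lost with the mean over its 2 probes (1.21, adjusted p = 0.139), the replicate block (0.0960), no filter on dim probes (0.0544) and slide row as a block (0.0517). Thbd, the anticoagulant receptor thrombomodulin, was well above background on 0 control and 3 Klf4 plasmid arrays, and was 2.21-fold higher at its bound. The bound itself was not tested. Thbd was tested on its signals as read, with a difference of 3.34 (SE 0.68, limma adjusted p = 0.0387) that rests on control signals not well above background. It lost its call without any single array except Klf4 replicate 4 (0.0636 to 0.132), in the first scan alone (0.0949), with the replicate block (0.0581) and with no filter on dim probes (0.0626). Normexp background correction was run with an offset of 50, which narrows the differences of dim probes. With it the log2 difference of Thbd was 0.87 (limma adjusted p = 0.312), a smaller rise than the 2.21-fold bound.

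The other 7 targets did not pass. In limma the unadjusted p was under 0.05 for 5 of the 10, which are the 3 called genes with Tagln and Nos3. Tagln, a smooth muscle actin-binding protein whose promoter KLF4 is known to repress, was at 1.66 (SE 0.36, limma adjusted p = 0.0539), with no overlap between its groups, and passed in 7 of 22 settings that tested it. Nos3, the endothelial nitric oxide synthase, was at 1.54 (SE 0.49, limma adjusted p = 0.180), and its groups overlapped. Ccnd1, the brightest of the list, was at 0.08 (95% interval -0.45 to 0.60).

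**Figure D5:**
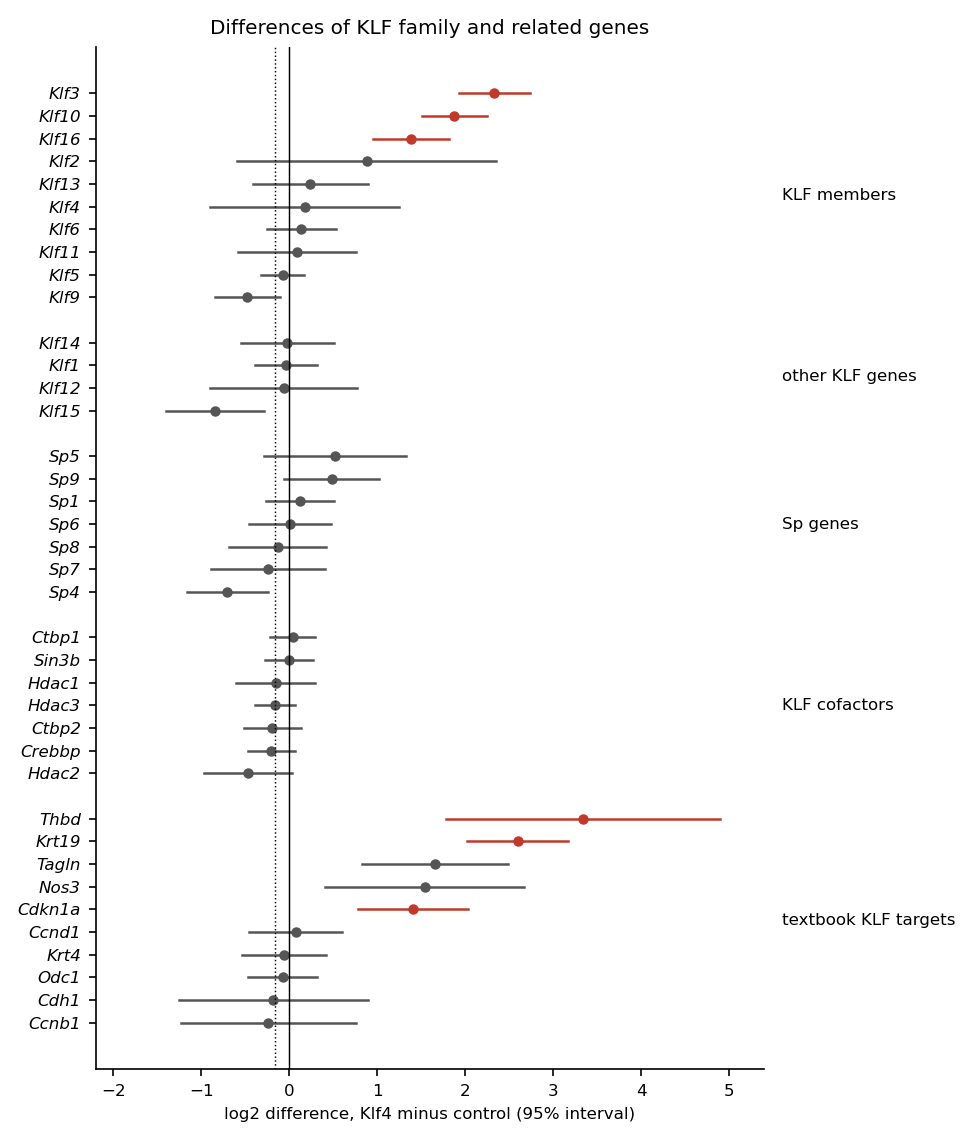
Log2 difference, Klf4 plasmid minus control, with its 95% interval for the KLF members, other KLF genes, Sp genes, KLF cofactors and known KLF targets (red where the limma adjusted p is under 0.05; solid line at 0, dotted line at -0.16, the median of all features). Of the 5 lists the members and the targets each hold 3 called genes, all to the right, and the other KLF genes, Sp genes and cofactors hold 0.

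Klf2 and Klf4 are known from endothelium, Klf4 also from vessel walls, so markers of other cell types are given beside these values. Of 8 endothelial markers 5 were tested, with 2 higher, 0 lower and a median of 0.25. Tek, the angiopoietin receptor, rose by 2.29 (limma adjusted p = 0.00568). Esam, an adhesion molecule, was well above background on 0 control and 3 Klf4 plasmid arrays and so was tested only through the group where it was high. Esam was 3.30-fold higher at its bound, which was not itself tested. On its signals as read its difference was 3.26 (SE 0.57, limma adjusted p = 0.0202), which rests on control signals not well above background. With normexp and its offset of 50 the log2 difference of Esam was 0.95 (limma adjusted p = 0.146), a smaller rise than the 3.30-fold bound. Its call was also lost with the replicate block (0.0736) and without most single arrays. Kdr was at -0.07, Cdh5 at -0.11 and Erg at 0.25, none of which passed. Pecam1 was well above background on at most 2 control and 2 Klf4 plasmid arrays, Cldn5 on 2 and 1, and Tie1 on 1 and 1. The summed level of the list, as the log2 of added normalised signals, was 4.97 to 5.16 in the controls and 4.82 to 5.44 with the Klf4 plasmid. It follows Kdr, which alone gave 4.96 to 5.15 and 4.79 to 5.43, and shows nothing of the other markers.

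Of 7 pericyte and fibroblast markers 4 were tested, with 2 higher and 0 lower. Cspg4, the proteoglycan NG2, rose by 1.53 (limma adjusted p = 0.00774) and Col1a1, a fibrillar collagen, by 1.27 (limma adjusted p = 0.0036). Pdgfrb, a defining receptor of pericytes, was at -0.96 (limma adjusted p = 0.359) and Col3a1 at -0.26 (limma adjusted p = 0.605). Lum, Dcn and Rgs5 were well above background on at most 1 array per group. The summed level was -0.27 to 0.16 in the controls and 0.999 to 1.40 with the Klf4 plasmid, without overlap. It follows Col1a1, which alone read -0.42 to -0.02 and 0.90 to 1.35.

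Of 5 astrocyte markers 4 were tested, with 1 higher, 0 lower and a median of -0.04. S100b, a calcium-binding protein, read -8.85, -5.23, -6.79 and -8.93 in the controls and -3.25, -3.54, -4.28 and -3.93 with the Klf4 plasmid. S100b was well above background on only 2 control arrays, so it was tested only through the Klf4 plasmid group, where it was high. The count is therefore a description. Its difference of 3.70 (limma adjusted p = 0.0489) has no firm size. It was 1.78 with normexp and its offset of 50, 2.55 with the mean over probes (adjusted p = 0.0659) and 4.44 without control replicate 3. Gfap, the defining astrocyte filament, was tested only through the controls and was at -0.44 with 1 array missing. Pax2 was at -0.18 and Aldh1l1 at 0.10, and none of these genes passed. The summed level of the list was -3.56 to -2.49 in the controls and -2.84 to -2.27 with the Klf4 plasmid.

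All 7 photoreceptor genes tested lay below 0, with 1 called lower, 4 at an unadjusted p under 0.05 in limma and a median of -0.54. Only 25.3% of all features lay above 0 under this scaling, so a value below 0 is common and the direction alone is a description. Rbp3, a retinoid carrier, fell by 1.19 (limma adjusted p = 0.0213). Crx, the cone-rod homeobox factor, was at -0.94 (limma adjusted p = 0.0507) and Nrl, the rod factor, at -1.09 (limma adjusted p = 0.0875), both without overlap between the groups. The summed level of the list was 5.59 to 6.11 in the controls and 4.93 to 5.84 with the Klf4 plasmid. It follows Otx2, by far the brightest gene of the list, and shows little of the other photoreceptor genes. Otx2 was at -0.54 (limma adjusted p = 0.284), and its groups overlapped. Of 7 retinal progenitor genes tested 0 passed, 4 lay above 0 and 3 below, and the median was 0.02. Rax lay lower without overlap, at -0.59 (limma adjusted p = 0.0932), and was the 1 gene of that list with an unadjusted p under 0.05 in limma. Microglial and macrophage (6 tested), pigment epithelial (2 tested) and red blood cell markers (3 tested) gave 0 calls, with 1, 1 and 0 at an unadjusted p under 0.05 in limma. These were C1qb, at 0.94 without overlap (limma adjusted p = 0.0624), and Ttr, at -1.55 with overlap (limma adjusted p = 0.109). The microglial and macrophage list had 4 genes above 0, 2 below and a median of 0.07. Mitf, the other pigment epithelial gene tested, was at 0.02. The part of these markers in the values of the KLF genes was not tested.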

How the data were processed

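RNA of 4 control and 4 Klf4 plasmid samples was hybridised to single-colour Agilent arrays on 1 slide. Per the file headers, spots were read with Feature Extraction 10.7.3.1. That software subtracted background and removed spatial trends from the deposited intensity values without scaling between arrays, and its deposited flags (unit other) mark control, outlier, saturated and well above background spots. The authors also deposited a table of log2 values, whose method the sources used here do not give. Its columns all had a median of 7.54, differed by at most 0.000787 in any decile, and each followed its own array most closely (r of 0.993 to 0.999 across probes), so it holds log2 signals with equal quantiles, uncentred and in the direction of the arrays.

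Control spots and outlier spots (324 to 421 per array) were not used, and 0 gene spots were saturated. Log2 signals of a probe's spots were averaged and the 75th percentile over gene spots subtracted. Probes well above background on 3 or more arrays of either group were tested, and a gene was its tested probe of highest mean. Probes were named through the RefSeq gene table of GRCr8 by accession: 21109 had 1 symbol, 0 several and 24489 none. Array coordinates are not given, since the headers name build rn4. Groups were compared with limma 3.58.1 in R 4.3.3 (lmFit and eBayes, two-sided, no covariates), tested first on simulated data, and figures were drawn with matplotlib 3.10.9. For a gene below that limit on all 4 arrays of a group, the bound sets the other group's mean against, per array, the higher of the gene's signal and the lowest signal well above background. That lowest signal is of any gene spot on the array, so the bound is not a strict lower limit for a single probe. On control replicate 4 it was 4.91, yet the Klf2 probe read 5.02 there and was not well above background.

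The text names the 10 members, listed genes that passed the threshold or were brightest in their list, and the 3 symbols closest in pattern to Klf4 and to each called member. Cell type markers and other listed genes were named after their values were seen. The members and lists were chosen with earlier results of these data known. Of the listed retinal progenitor genes 1 is not reported here. Alternatives were background correction, scaling, filter, probe choice, the authors' values, array weights, blocks and left-out arrays. The number of arrays limits the precision.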

Additional observations from a re-analysis of the deposited data

Results flagged for a closer look

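Of the 15 member probes in both groups, 1 array stood apart from the other 3 of its group by more than Dixon's 95% critical value for 4 samples, in a check that chance alone trips in about 1 in 20 groups. The Klf2 probe read -3.58 on Klf4 replicate 4, with the next array at -6.27, a gap of 0.851 of the range of the group.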

How the results depend on the processing

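The calls of Klf3, Klf10 and Klf16 were kept in all 23 settings tried, and 0 members were lower in any (Klf9 alone was lower at an unadjusted p under 0.05 in the reported limma fit). Leaving out 1 array kept 3 members higher each time. The counts over all genes, 717 higher and 189 lower, moved more. With array weights they were 1615 and 1665, in the first scan alone 396 and 44, and without 1 array 433 to 1145 higher and 44 to 485 lower. Lower genes numbered 123 with the array median, 97 with no filter on dim probes, 348 with a scan block and 110 with the replicate block. Numbers were shared by the groups, but same-numbered arrays correlated at 0.355, 0.243, 0.0608 and 0.551 in their deviations from the group means (replicates 2 to 5). For 3 of 4 controls the Klf4 plasmid array of the same number correlated best, and 1 value was under 0.1, so the numbers were not taken as pairs, and the replicate block ended the calls of Cdkn1a, Thbd, Esam and S100b but of no member.

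Directions of members that did not pass turned in some settings, and the cause was not tested. Without 1 array Klf4 ran from -0.26 (Klf4 replicate 3) to 0.447 (control replicate 3), with -0.00372 without control replicate 2. Klf5 was 0.0674 with quantile normalization, 0.0642 with the authors' values, 0.0117 with the array median, 0.0227 with the 75th percentile over probes and 0.00419 with the mean over probes. That percentile over probes was added after seeing the data, because some probes are spotted up to 10 times; it gave 961 higher and 140 lower genes and the same 3 members. Klf6 was -0.0289 and Klf11 -0.14 with the mean over probes. Klf11 was -0.23 with array weights and -0.21 without both arrays numbered 4. Without 1 array it ran from -0.22 (Klf4 replicate 4) to 0.250, and Klf13 from -0.00283 (control replicate 5) to 0.366. Of the fits without 1 array, Esam passed in those without control or Klf4 replicate 4 and missed in the others (adjusted p 0.0536 to 0.0706) and not with normexp (0.146). S100b lost its call without any array except control replicate 3 (0.0587 to 0.151), and Rbp3 passed only without control replicate 5 or Klf4 replicate 2 or 4 (otherwise 0.0568 to 0.0827). Among arrays of the first scan, Tek (0.0512), Cspg4 (0.0695), Esam (0.142), S100b (0.201), Thbd (0.0949) and Cdkn1a (0.177) did not pass. The planned normexp used the median spot signal, since the files hold no mean spot signal. An offset of 50 was added before the log2, which narrows the differences of dim probes.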
